A study of Mus musculus with 3 samples.

Results

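T and NK cells were a small population of the mouse epididymis, the convoluted tube that stores sperm while they gain motility. They made up 197 of the 14555 cells kept from the 3 libraries. Untreated wild-type C57BL/6 males aged 56 days provided the tissue, which was cut into caput (head), corpus (body) and cauda (tail), and each region gave 1 library of single-cell RNA made with the Singleron GEXSCOPE kit. No group carried a transgene or received an agent, with the number of animals behind each library not given in the sources used here.

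Members were chosen from the deposited counts of unique molecular identifiers (UMIs, each standing for 1 captured RNA molecule). A cell needed 200 detected genes, UMIs of at least 2 of 7 lymphocyte genes (Cd3d, Cd3e, Cd3g, Trbc2, Nkg7, Lck and Cd2), and at least 5 UMIs of these genes per 10000 UMIs of the cell. It also needed fewer than 15 UMIs per 10000 of the macrophage complement genes C1qa, C1qb and C1qc, and no more than 2 UMIs of the mast cell protease genes Mcpt4, Cpa3 and Cma1. The rule found 18 of 4939 cells in caput (0.364%, 95% Clopper-Pearson interval 0.216 to 0.575%), 92 of 4831 in corpus (1.90%, 1.54 to 2.33%) and 87 of 4785 in cauda (1.82%, 1.46 to 2.24%). The share in caput was lower than in either other region, and the corpus and cauda intervals overlapped. With 1 library per region, region and library cannot be told apart, cells are not replicates, and no test was made. Every interval covers counting error only.

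The T cell receptor is a pair of variable chains, alpha with beta or gamma with delta, that signals through the CD3 proteins and the kinases and adaptors behind them. Natural killer (NK) cells lack that receptor and read their targets through lectin-like receptors of the Klr families, and both cell types can kill with granule proteases and signal with cytokines. In the epididymis lymphocytes lie in the epithelium and the tissue between the tubules, where they meet both ascending microbes and sperm antigens.

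Members held 123191 UMIs in caput, 247115 in corpus and 258769 in cauda. The median member had 5428, 2224 and 2572 UMIs in caput, corpus and cauda, against 5077, 2674 and 2187 in the other cells of the same libraries. Pairs of libraries shared 14 barcodes (caput and corpus), 21 (caput and cauda) and 14 (corpus and cauda), none of them a member's. Over 20% of the UMIs were mitochondrial in 1 caput, 8 corpus and 6 cauda members, against 166, 1368 and 1231 other cells. The median sum of the 7 genes was 17.0, 24.5 and 26.9 UMIs per 10000 in caput, corpus and cauda. Members held 2 of the genes in 63 cells, 3 in 54 and 4 or more in 80. Close to the threshold, 2 members lay between 5 and 6 per 10000 and 4 excluded cells with 2 or more genes lay between 4 and 5. The ceiling on complement genes excluded 27 cells that met the other conditions, 20 of them in cauda, and the ceiling on mast cell genes excluded 0.

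Genes outside the rule were read to check that members were leukocytes. Ptprc, the pan-leukocyte phosphatase CD45, had a UMI in 16 of the 18 members from caput, 68 of the 92 from corpus and 59 of the 87 from cauda. Epcam cells were cells with at least 2 UMIs of the epithelial gene Epcam, leaving out members and cells at or above the complement ceiling. Their shares with a Ptprc UMI were 3.66%, 6.06% and 9.53%. As a pan-leukocyte gene, Ptprc cannot tell T and NK cells from other leukocytes. Those Epcam cells were deeper than the members, with medians of 7870, 5547 and 7845 UMIs, so these shares are not at equal depth. Where their Ptprc UMIs come from was not tested. The 8 B and plasma cell genes summed to 32.5, 109 and 139 CPM in caput, corpus and cauda members, against 5.90, 32.4 and 63.4 in the other cells, with 6, 5 and 7 of the 8 at 0 in members. Most of it was Ighm, the heavy chain of IgM, at 24.4, 97.1 and 139 CPM in 2, 19 and 25 members, against 4.55, 22 and 55.1 in the other cells, and where it comes from was not tested. Cd79a, Ms4a1, Pax5 and Jchain were at 0 UMIs in members of every region. Turning to genes of the rule, which describe the members and do not check the label, a UMI of Cd3d, Cd3e or Cd3g was found in 164 members (83.2%, 77.3 to 88.2%). The 33 members without one could enter only through Trbc2, Nkg7, Lck and Cd2. Of genes outside the rule, 30 of them had the chemokine Ccl5, 17 had Klrd1, the CD94 subunit of NK receptors, and 7 had Ncr1, the NK receptor NKp46. Gata3 was found in 8 of the 33, Il7r in 5, a gamma or delta constant gene in 3 and Trac in 2. Trbc1 or Trbc2, the latter a gene of the rule, was found in 27. Among the 164 members with a CD3 UMI, Ccl5 was found in 81, Klrd1 in 38, Ncr1 in 5, Gata3 in 37 and Il7r in 64. A gamma or delta constant gene was found in 64 of these 164, Trac in 65 and Trbc1 or Trbc2 in 131.

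**Figure D1:**
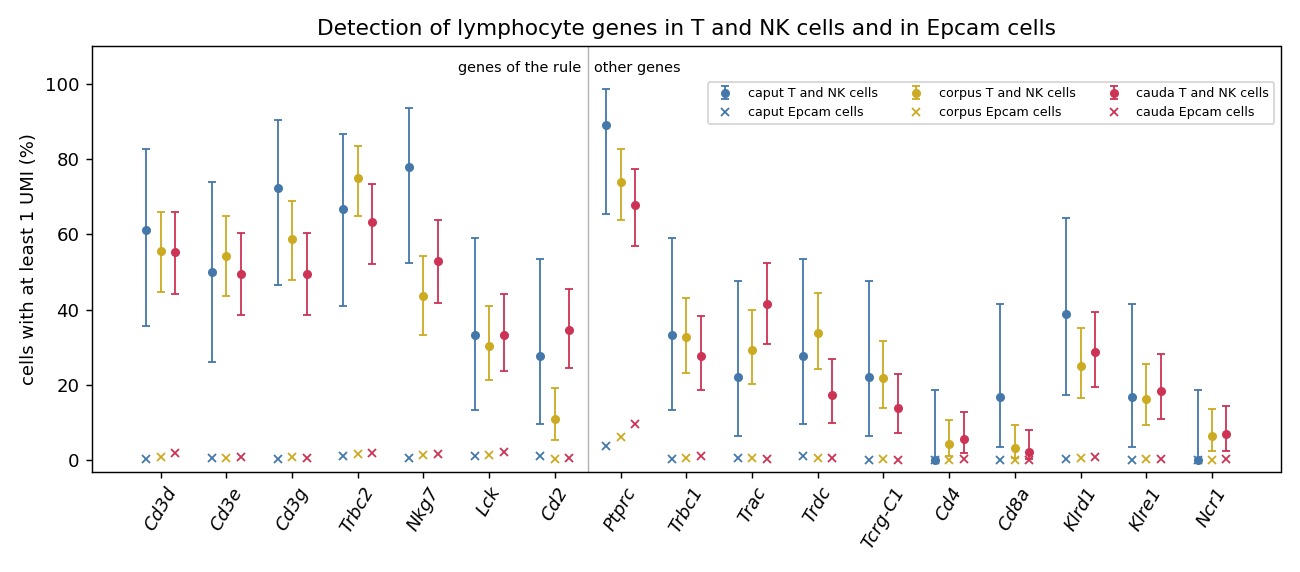
Share of cells with at least 1 UMI (percent, linear axis) of the 7 genes of the rule and of 10 other lymphocyte genes, in T and NK cells (circles, with 95% Clopper-Pearson bars) and in Epcam cells (crosses) of caput, corpus and cauda. Ptprc was found in most members of each region, while in corpus and cauda Cd4 and Cd8a were rare beside Klrd1, Trac and Trdc. In caput Cd4 was found in 0 members, Cd8a in 3, Trac in 4, Trdc in 5 and Klrd1 in 7.

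The genes of the CD3 complex were those of the rule, so their levels are a description. A level is a gene's UMIs divided by the summed UMIs of the group and scaled to 1000000 (CPM). Cd3e, whose chain pairs with the other CD3 chains and carries a signalling motif, stood at 130, 409 and 301 CPM in caput, corpus and cauda members, against 0.605, 1.33 and 2.51 in the other cells. Cd3g stood at 365, 457 and 413 CPM in members, and Cd3d at 187, 401 and 421. All 3 genes were lowest in caput, where they rest on 16 to 45 UMIs. Cd3g and Cd3d lie head to head on chromosome 9, with 1355 bases between their start sites, and Cd3e lies beyond Cd3d. Their promoters are shown because these genes define the cells. The sequences are RefSeq's on GRCm38.p6, each from 250 bases before to 50 after the start and written along the gene's strand. A search of both strands for TGTGGT, the core letters bound by RUNX factors, did not find it in them, which says only that the letters are not in these windows.
Cd3g (chr9:44980382-44980681, minus strand): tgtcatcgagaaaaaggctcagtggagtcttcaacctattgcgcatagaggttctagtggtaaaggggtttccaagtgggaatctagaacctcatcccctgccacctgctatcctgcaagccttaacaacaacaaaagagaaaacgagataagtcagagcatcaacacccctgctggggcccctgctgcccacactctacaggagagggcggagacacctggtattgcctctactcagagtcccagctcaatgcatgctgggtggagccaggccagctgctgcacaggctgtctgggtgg
Cd3d (chr9:44981536-44981835, plus strand): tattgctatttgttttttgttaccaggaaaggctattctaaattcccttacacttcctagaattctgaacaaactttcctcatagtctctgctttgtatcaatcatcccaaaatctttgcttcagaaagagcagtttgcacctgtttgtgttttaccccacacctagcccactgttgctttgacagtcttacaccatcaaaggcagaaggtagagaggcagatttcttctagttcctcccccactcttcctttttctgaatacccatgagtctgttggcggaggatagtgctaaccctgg

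Members were then set beside all other cells of their own library, in corpus and cauda, which had at least 50 members each. Members were chosen on lymphocyte UMIs, so this shows what they carried and supports nothing about the choice itself. A gene counted as higher or lower where its CPM differed at least 4-fold, the 95% interval of the ratio excluded 2-fold, and the higher group held at least 20 UMIs, so a gene with fewer could not pass. In corpus 174 genes were higher (1.15% of 15162 tested) and 58 lower (0.383%). In cauda 126 were higher (0.863% of 14604) and 45 lower (0.308%). The lists of both regions shared 90 higher genes (51.7% of the corpus list and 71.4% of the cauda list) and 4 lower ones, and 0 genes went opposite ways. Over all genes with 20 UMIs in both groups together, the median log2 ratio was 0.52 in corpus and 0.36 in cauda, and the medians of the lists below stand beside these. Scaling by trimmed means (TMM) would lower the corpus ratios by 0.23 and the cauda ratios by 0.19 on the log2 scale.

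Of the antigen receptor list, 6 of 7 genes outside the rule were higher in corpus members and 4 of 7 in cauda members, with none lower, and the list's median log2 ratio was 7.28 and 6.53. Trac, the constant part of the alpha chain (chr14:54220521-54224206, plus strand, GRCm38), stood at 56.8, 275 and 251 CPM in caput, corpus and cauda members, against 0.581, 1.85 and 1.56 in the other cells, a ratio of 148 in corpus (98.7 to 226) and 161 in cauda (102 to 261). Trdc, the constant part of the delta chain, lies upstream in the same locus (chr14:54142851-54148868). Its level was 170, 324 and 182 CPM in members, against 0.968, 1.52 and 3.62 in the other cells. Trbc1 and Tcrg-C1, constant genes of the beta and gamma chains, were 144-fold and 123-fold higher in corpus members and 107-fold and 81.0-fold higher in cauda members, and both have near-identical copies (Trbc2, Tcrg-C2) between which reads can be split. Cd247, the zeta signalling chain, was higher in corpus (298-fold, 132 to 756) and had 16 UMIs in cauda members, under the minimum.

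Of 22 genes of receptor signalling and costimulation, 8 were higher in corpus members and 10 in cauda members (median log2 ratio 5.24 and 4.90). Lat, the membrane adaptor that gathers the signalling complex, stood at 48.7, 214 and 155 CPM in caput, corpus and cauda members, against 12.6, 1.19 and 2.00 in the other cells, where 10.4% of caput Epcam cells had a Lat UMI. Thy1, a surface glycoprotein of mouse T cells, was 27.3-fold higher in corpus (20.9 to 35.4) and 26.0-fold in cauda (20.3 to 33.1). Icos, an inducible costimulator, was 156-fold higher in corpus and 48.2-fold in cauda, and had 0 UMIs in the 18 caput members. Cd28, the main costimulatory receptor, was 42.1-fold higher in cauda (27.7 to 63.2). In corpus its 19 UMIs fell short of the minimum. The antigen receptor machinery outside the rule was therefore present in members of both regions.

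Of 26 NK receptor genes, 11 were higher in corpus members and 9 in cauda members (median log2 ratio 5.67 and 4.99). Klrd1 stood at 154, 239 and 213 CPM in caput, corpus and cauda members, against 0.411, 5.99 and 6.12 in the other cells. Klre1, a lectin-like NK receptor, was 110-fold higher in corpus (64.9 to 190) and 67.0-fold in cauda (38.4 to 117). Klra7, of the Ly49 family, was 289-fold and 149-fold higher in corpus and cauda members, and its close relatives can share its reads. Klrk1, the activating receptor NKG2D, was 62.3-fold and 21.3-fold higher. NK receptor genes were thus carried in both regions, by 9 (Klra7, corpus) to 25 (Klrd1, cauda) cells for each of these genes. Klrb1c, the receptor NK1.1, stood at 81.2, 101 and 88.9 CPM in members, against 116, 0.523 and 1.73 in the other cells: in caput 39.3% of Epcam cells had a UMI of it, so it did not separate lymphocytes there. Tyrobp, the DAP12 adaptor of NK receptors and myeloid cells, was higher in corpus (4.07-fold, 3.37 to 4.87), while in cauda it stood at 263 CPM in members and 298 in the other cells.

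Of 17 granule genes, 4 were higher in corpus members (Gzma, Gzmb, Ctsw and Cst7) and 3 in cauda members (Gzmb, Gzmc and Ctsw), with a median log2 ratio of 4.83 and 3.19. Gzmb, the granule protease granzyme B, stood at 674, 162 and 151 CPM in caput, corpus and cauda members, against 1.23, 1.14 and 1.73 in the other cells. In caput its 83 UMIs came from 9 of 18 members. Ctsw, a protease of cytotoxic lymphocytes, was 122-fold higher in corpus and 66.8-fold in cauda. Prf1, the pore-forming perforin, had 17 UMIs in 7 corpus members and 13 in 9 cauda members, under the minimum, and 0 in caput. Gzmc rested on 2 cauda cells, 1 of which held 58 of its 59 UMIs.

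Ccl5, a chemokine that draws T cells and monocytes, was the most abundant cytokine gene of the lists in members by UMIs. It stood at 1973, 4265 and 3057 CPM in caput, corpus and cauda members, against 10.2, 54.8 and 69.3 in the other cells, a ratio of 77.9 in corpus (71.6 to 84.7) and 44.1 in cauda (40.3 to 48.2). After every cell was thinned to 1000 UMIs, 44.4%, 47.8% and 56.1% of caput, corpus and cauda members still had a Ccl5 UMI (66.7%, 48.9% and 62.1% unthinned), against 0.400%, 2.00% and 0.957% of Epcam cells. The thinning left out 5 cauda members. Of 23 cytokine genes, 6 were higher in corpus (Il17a, Ltb, Xcl1, Ccl4, Ccl5, Flt3l) and 5 in cauda (Ifng, Ltb, Cd40lg, Xcl1, Ccl5), with a median log2 ratio of 4.32 and 4.86. Xcl1, the chemokine lymphotactin, was 139-fold higher in corpus and 51.7-fold in cauda. Ltb, lymphotoxin beta, was 64.6-fold and 70.4-fold higher. Ifng, interferon gamma, stood at 32.5, 64.7 and 139 CPM in members, against 0.218, 1.24 and 1.06 in the other cells. Its 16 UMIs in corpus were under the minimum, and its 36 in cauda came from 18 cells.

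**Figure D2:**
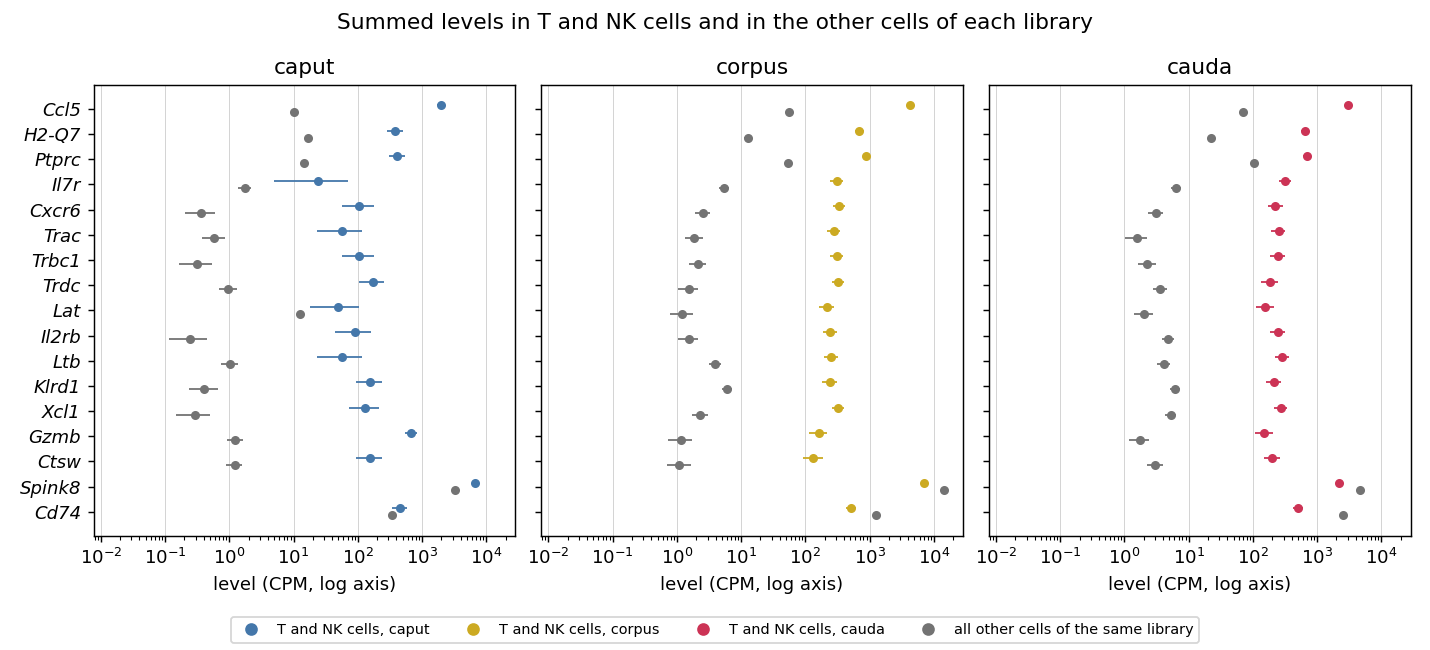
Summed level of 17 genes (CPM, log axis) in T and NK cells (coloured points) and in all other cells of the same library (grey), for caput, corpus and cauda, with 95% Poisson intervals that cover counting error only. Lymphocyte genes lie far to the right in members, while Spink8, an epithelial gene, and Cd74, an antigen presentation gene, are lower in members of corpus and cauda and higher in members of caput.

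The cytokine receptors Il7r (survival signals from interleukin 7), Il2rb and Il2rg (chains for interleukins 2 and 15) and Il18r1 were higher in both corpus and cauda, where 4 and 6 of 22 genes passed (median log2 ratio 1.99 and 1.59). Il7r stood at 24.4, 312 and 321 CPM in caput, corpus and cauda members, against 1.74, 5.42 and 6.35 in the other cells, and was found in 1 of 18, 35 of 92 and 33 of 87 members. Il2rb was 160-fold higher in corpus (102 to 253) and 51.4-fold in cauda (36.5 to 72.1). Of 33 transcription factors, 7 were higher in each region (median log2 ratio 2.14 and 1.60). Bcl11b, needed for T cell commitment, was 14-fold and 25.0-fold higher in corpus and cauda. Tcf7, a factor of early and unexpanded T cells, was 13.5-fold and 24.4-fold higher, Ets1 24.5-fold and 27.0-fold, and Runx3, a factor of cytotoxic lymphocytes, stood at 105 and 88.9 CPM in corpus and cauda members, against 2.71 and 4.45 in the other cells. In caput these genes were also read in Epcam cells, with Tcf7 in 16.5% and Bcl11b in 10.3% of them. The lineage factors Tbx21 and Eomes had 11 or fewer UMIs in members of any region, too few to pass at this depth. Gata3 had a UMI in 27.8%, 16.3% and 28.7% of caput, corpus and cauda members, against 47.5%, 41.1% and 55.8% of the deeper Epcam cells. Thinned to 1000 UMIs, it was found in 0 of 18 caput members, 3.26% of corpus members and 12.2% of cauda members, against 8.73%, 8.22% and 12.2% of Epcam cells.

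Of 30 trafficking and adhesion genes, 9 were higher in each region (median log2 ratio 2.89 and 2.68). Cxcr6, a chemokine receptor of lymphocytes that stay in tissues, stood at 106, 340 and 224 CPM in caput, corpus and cauda members, against 0.363, 2.52 and 3.06 in the other cells. Cd69, which holds lymphocytes in tissue, stood at 89.3, 421 and 313 in members, against 2.47, 8.89 and 6.4. Rgs1, a brake on chemokine receptor signalling, stood at 1080, 643 and 1001 in members, against 80.3, 80.7 and 151. These 3 genes were the ones of the 14 on the tissue residency list that passed in both regions (median log2 ratio 2.21 and 1.38). Itgae, the integrin CD103, had 1 UMI in caput, 4 in corpus and 0 in cauda members. Of 12 genes of the naive and recirculating state, 5 were higher in corpus and 4 in cauda, with Il7r, Tcf7 and Ly6c2 among those in both (median log2 ratio 1.84 and 1.95). Ccr7, the lymph node homing receptor, had 0 UMIs in caput and corpus members and 3 in cauda members.

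By the difference in the share of cells with a UMI, the genes outside the rule that stood out most were general leukocyte genes. H2-Q7, a class Ib histocompatibility gene with near-identical neighbours, was found in 72.8% of corpus members and 4.01% of the other corpus cells, and in 71.3% of cauda members and 5.90% of the other cauda cells. Coro1a, an actin regulator of leukocytes, was found in 66.3% of corpus members and 9.56% of the other cells, and in cauda in 71.3% and 13.3%. Rac2, a leukocyte GTPase, followed with 63.0% and 7.32% in corpus and 65.5% and 11.9% in cauda. The remaining genes among the 5 with the widest difference were Ptprc in both regions, Laptm5 in corpus and Ccl5 in cauda.

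Epithelial and stromal RNA was present in members too. The summed level of 8 principal cell genes was 48664, 10853 and 4784 CPM in caput, corpus and cauda members, against 65953, 24268 and 10210 in the other cells. Macrophage genes summed to 1973, 850 and 2172 in members, against 2332, 2326 and 5458, with 5 of 8 at 0 in caput members and none at 0 elsewhere. This list holds C1qa, C1qb and C1qc, which the rule capped in members, so its lower sum is in part set by the rule. Fibroblast genes summed to 373, 5139 and 19991 in members, against 1394, 6233 and 37706. An Epcam UMI was found in 12 caput, 20 corpus and 19 cauda members, and 2, 22 and 41 members had a C1q UMI. At least 2 Epcam UMIs, as in Epcam cells, were found in 9 caput, 2 corpus and 5 cauda members. In caput, dendritic cell genes summed to 609 CPM in members and 447 in the other cells, endothelial genes to 284 and 225, and smooth muscle genes to 406 and 224. Basal cell genes in cauda summed to 205 and 135. All remaining sums outside the lymphocyte lists were lower in members. The principal cell and fibroblast levels followed the library. Whether RNA of other cell types comes from free RNA, from doublets or from the cells was not tested. Lower in members of both regions were Clcn5, a chloride transporter, Prom2, a membrane protein of epithelia, Ccl8, a macrophage chemokine, and a gene spelled Retnia in the matrix. Clcn5 stood at 24.3 and 27.1 CPM in corpus and cauda members, against 278 and 206 in the other cells.

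Set beside macrophage-gate cells, the cells with at least 15 complement UMIs per 10000 (315 in corpus, 995 in cauda), members had 99 higher genes in corpus (1.7% of 5835) and 229 lower (3.92%), and 104 higher (1.05% of 9887) and 257 lower (2.6%) in cauda. The lists shared 65 higher and 170 lower genes, and 0 went opposite ways. Cxcr6 was 46.1-fold higher in corpus members (22.4 to 110) and 33.2-fold in cauda members (20.3 to 56.0). Of the tissue residency list, Cd69 passed in both regions as well, while Rgs1 passed in neither. H2-Q7 was 18.9-fold and 12.1-fold higher, so that it separated lymphocytes from these leukocytes as well. Rora, a nuclear receptor of innate and helper lymphocytes, was 9.24-fold and 4.89-fold higher. Csf1r, the receptor for macrophage colony stimulating factor, had 1 UMI in corpus members and 1 in cauda members, against 343 and 1683 UMIs in macrophage-gate cells. Cd74, the invariant chain of class II presentation, stood at 510 and 502 CPM in members, against 8835 and 7037, and H2-Ab1, a class II chain, at 97.1 and 147, against 1441 and 1249. Ptprc was 2.55-fold and 2.32-fold higher in members and did not pass 4-fold in either region. In cauda Tyrobp was 4.13-fold lower in members (3.25 to 5.34).

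Members were divided by detection of Cd4, the coreceptor of helper T cells, Cd8a, the coreceptor of cytotoxic T cells, and Klrd1. Klrd1 alone was found in 6 of 18 caput members (33.3%, 13.3 to 59.0%), 21 of 92 corpus members (22.8%, 14.7 to 32.8%) and 23 of 87 cauda members (26.4%, 17.6 to 37.0%). Cd4 alone was found in 0, 4 and 4 members and Cd8a alone in 2, 1 and 1. None of the 3 genes was found in 9 caput, 64 corpus and 57 cauda members. Cd4 had 1 or 2 UMIs in each of the 9 members that held any, so a cell without a UMI may still express it. After thinning to 1000 UMIs, Klrd1 was found in 11.1%, 14.1% and 15.9% of caput, corpus and cauda members, against 0.286% of corpus Epcam cells, and 0 of 3002 in caput and 0 of 418 in cauda, which allow shares of up to 0.0999% and 0.718% when 0 is read as at most 3 cells. The intervals of the 3 regions overlapped at equal depth.

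Klrd1-alone cells were compared with cells holding none of the 3 genes, a comparison added after the values had been seen. In corpus 26 genes were higher (2.2% of 1183 tested) and 22 lower (1.86%), and in cauda 12 were higher (1.07% of 1126) and 21 lower (1.87%). Higher in both regions were Klra7, Klre1, Xcl1 and Tyrobp. Klre1 stood at 419 CPM in Klrd1-alone cells and 25.5 in the cells with none in corpus (16.4-fold, 5.8 to 64.0), and at 241 and 35.1 in cauda (6.88-fold, 2.54 to 23.3). Xcl1 stood at 810 and 82.9 in corpus and at 647 and 77.1 in cauda, ratios of 9.77 and 8.39. Tyrobp was 4.45-fold and 6.62-fold higher. Ccl5 was higher by less than 4-fold in each region (3.45-fold and 3.05-fold). Gzma was 23.3-fold higher in corpus on 55 and 5 UMIs, and in cauda had 13 UMIs in Klrd1-alone cells and 1 in the cells with none. Of 25 NK receptor genes other than Klrd1, 8 were higher and 0 lower in corpus, and 4 were higher and 1 lower (Klrg1) in cauda.

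Lower in Klrd1-alone cells of both regions were Cxcr6, Cd163l1, Trdc, Lat, the calcium-binding gene S100a4 and 3 haemoglobin genes, whose UMIs came largely from a few cells. Cxcr6 had 0 UMIs in 21 Klrd1-alone cells and 82 in 64 cells with none in corpus (at least 12.9-fold lower, from a floor of 3 UMIs over the group), and 3 and 53 UMIs in cauda (11.3-fold, 3.66 to 56.5). Lat had 1 and 47 UMIs in corpus and 2 and 35 in cauda. Trdc was 5.83-fold lower in corpus (2.55 to 16.4) and 6.87-fold lower in cauda (2.50 to 26.4). Il7r was 16.2-fold lower in cauda (5.34 to 80.3) and in corpus stood at 122 and 396 CPM, a 3.25-fold difference under the rule's size. The CD3 genes belong to the rule, so their values here are a description. Cd3e stood at 216 CPM in Klrd1-alone cells and 498 in the cells with none in corpus (2.30-fold lower, 1.33 to 4.23), and at 186 and 365 in cauda (1.96-fold lower, 1.11 to 3.61). Cd3g stood at 311 and 530 in corpus and at 318 and 428 in cauda, and Cd3d at 311 and 389 in corpus and at 296 and 463 in cauda. No CD3 UMI was found in 17 of 55 members with Klrd1 and 16 of 142 members without it, with 0 of 7 and 4 of 11 in caput, 11 of 23 and 6 of 69 in corpus, and 6 of 25 and 6 of 62 in cauda.

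**Figure D3:**
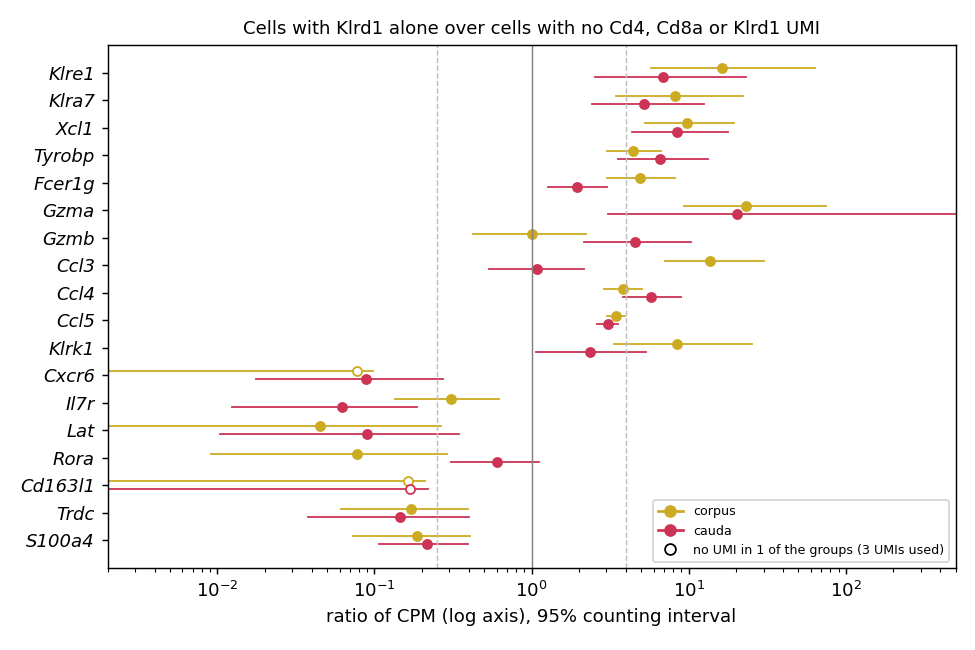
Ratio of summed levels (log axis) of 18 genes in cells with Klrd1 alone over cells with none of Cd4, Cd8a and Klrd1, in corpus (yellow) and cauda (red), with 95% counting intervals cut at the edges of the axis. Open points had no UMI in 1 of the groups and are bounds, dashed lines mark 4-fold, and Klre1, Klra7, Xcl1 and Tyrobp lie to the right in both regions while Cxcr6, Lat, Cd163l1, Trdc and S100a4 lie to the left.

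The Cd4-alone and Cd8a-alone groups were small. Pooled over regions, 50 Klrd1-alone cells had 21 genes higher (1.19% of 1758) and 2 lower (0.114%) than 8 Cd4-alone cells. Ccl5 stood at 5365 CPM in Klrd1-alone cells and 665 in Cd4-alone cells (8.07-fold, 4.95 to 14.2). Tyrobp and Xcl1 had 169 and 129 UMIs in Klrd1-alone cells and 0 in Cd4-alone cells, at least 6.21-fold and 4.74-fold higher. Ifi27l2a, an interferon-induced gene, was 7.81-fold lower (4.67 to 13.0). The list also held caput secretory genes such as Gpx5, and no Cd4-alone cell came from caput. The 4 Cd8a-alone cells had 21 genes higher (9.55% of 220) and 2 lower (0.909%) than Cd4-alone cells, led by Gpx5 and other caput secretory genes, and 2 of them came from caput. Klrd1-alone cells had 13 genes higher (0.739% of 1758) and 8 lower (0.455%) than Cd8a-alone cells. Without members that held an Epcam UMI these 3 counts were 7, 2 and 6 genes in all, against 23, 23 and 21.

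Receptor chains divided the members in another way, also added after the values had been seen. A gamma or delta constant gene (Trdc, Tcrg-C1, Tcrg-C2 or Tcrg-C4) without Trac was found in 6 of 18 caput members, 31 of 92 corpus members (33.7%, 24.2 to 44.3%) and 15 of 87 cauda members (17.2%, 9.98 to 26.8%). Trac without these was found in 3 caput members, 19 corpus members (20.7%, 12.9 to 30.4%) and 30 cauda members (34.5%, 24.6 to 45.4%). Both were found in 1, 8 and 6 cells and neither in 8, 34 and 36. The order of the classes was opposite in corpus and cauda, though the intervals overlapped. Thinned to 1000 UMIs, Trdc was found in 23.9% of corpus members (15.6 to 33.9%) and 14.6% of cauda members (7.80 to 24.2%), and unthinned in 33.7% and 17.2%. Trac was found in 16.3% and 23.2% after thinning, and unthinned in 29.3% and 41.4%. A Trbc1 or Trbc2 UMI was found in 41 of the 52 cells with a gamma or delta gene and no Trac. It was found in 47 of the 52 with Trac alone. Trbc2 is a gene of the rule, so these shares describe the members and cannot show whether beta transcripts separate the classes.

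Cells with a gamma or delta gene and no Trac were set beside cells with Trac alone. In corpus 15 genes were higher (2.4% of 624) and 5 lower (0.801%), and in cauda 8 were higher (1.03% of 780) and 2 lower (0.256%). Cxcr6 and Cd163l1, a scavenger receptor of mouse gamma-delta T cells, were higher in both regions. Cd163l1 had 31 UMIs in 15 gamma or delta cells and 0 in Trac cells of corpus, and 24 UMIs in 9 cells and 0 in cauda, at least 7.86-fold and 23.1-fold higher. Cxcr6 stood at 598 and 120 CPM in corpus (5.00-fold, 2.24 to 13.1) and at 849 and 50.7 in cauda (16.7-fold, 6.41 to 55.4). Trdv4, a delta variable gene, had 44 UMIs and 0 in corpus, at least 11.1-fold higher, and 10 and 0 in cauda, under the minimum. In corpus Tmem176b was 19.4-fold higher (7.34 to 72.5), and in cauda 2.81-fold. Lower in corpus were Ly6c2, a surface marker of memory T cells and monocytes (22.8-fold, 7.38 to 114), and Ms4a4b (4.45-fold, 2.7 to 7.62). In cauda they stood at 322 and 477 CPM for Ly6c2 and at 468 and 710 for Ms4a4b. Haemoglobin genes and Ccl4 among the cauda calls came each mostly from a single cell.

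On a list of 22 genes of interleukin 17-producing gamma-delta T cells, 8 were higher in corpus members and 4 in cauda members than in the other cells (median log2 ratio 2.68 and 1.84). Il17a, the cytokine interleukin 17A, followed the division by chains. Of the 15 members with an Il17a UMI, 10 had a gamma or delta gene without Trac, 4 had both, 1 had neither and 0 had Trac alone. In corpus 11 members held 19, 18, 15, 14, 14, 12, 9, 4, 4, 1 and 1 UMIs of it, and in cauda 4 members held 8, 2, 2 and 1. No caput member held any (0 of 18 cells, which allows a share of cells with a UMI of up to 16.7% when 0 is read as at most 3 cells). Gamma or delta cells without Trac held 75 Il17a UMIs and Trac cells 0 in corpus, at least 19.0-fold higher (log2 bound 4.25, and 2.74 without members holding an Epcam UMI), and 9 and 0 in cauda, under the minimum. Il23r, a receptor linked to interleukin 17 production, had 6 UMIs in corpus gamma or delta cells and 0 in Trac cells, below the minimum. The promoters of Il17a and Cxcr6 are shown because both genes were higher in gamma or delta cells than in Trac cells of corpus. Il17a was found in only 10 of the 52 gamma or delta cells without Trac over all regions. The sequences are RefSeq's on GRCm38.p6, from 250 bases before to 50 after the start, and capitals mark TGTGGT as read on the opposite strand. TGTGGT occurs in 16.8% of 32851 promoters of this length, on either strand, so these matches are a description and not evidence of binding.
Il17a (chr1:20730655-20730954, plus strand): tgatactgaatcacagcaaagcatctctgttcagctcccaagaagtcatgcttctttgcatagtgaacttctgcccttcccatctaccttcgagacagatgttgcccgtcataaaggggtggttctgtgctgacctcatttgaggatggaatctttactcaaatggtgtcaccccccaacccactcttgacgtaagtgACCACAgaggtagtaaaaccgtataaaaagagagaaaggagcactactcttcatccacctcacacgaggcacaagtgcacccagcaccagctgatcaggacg
Cxcr6 (chr9:123806227-123806526, plus strand): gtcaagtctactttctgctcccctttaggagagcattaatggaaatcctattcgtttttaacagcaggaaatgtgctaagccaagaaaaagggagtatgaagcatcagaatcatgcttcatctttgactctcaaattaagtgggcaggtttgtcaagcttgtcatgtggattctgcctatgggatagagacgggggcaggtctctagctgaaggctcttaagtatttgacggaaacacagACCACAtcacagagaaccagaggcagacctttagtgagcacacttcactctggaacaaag

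**Figure D4:**
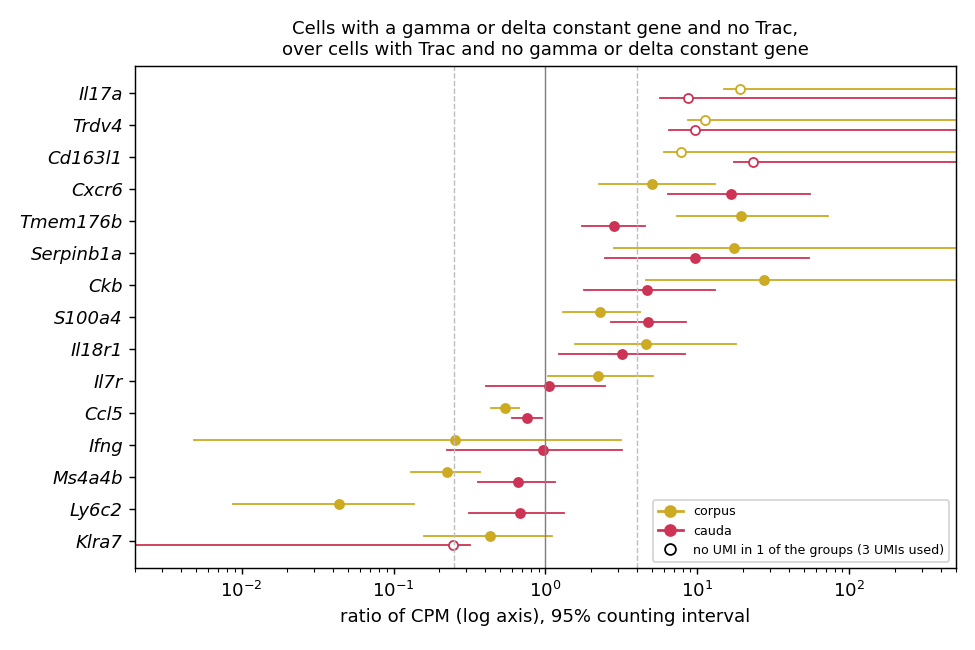
Ratio of summed levels (log axis) of 15 genes in cells with a gamma or delta constant gene and no Trac over cells with Trac and no gamma or delta gene, in corpus (yellow) and cauda (red), with 95% counting intervals cut at the edges of the axis. Open points had no UMI in 1 of the groups and are bounds, dashed lines mark 4-fold, and Cxcr6 and Cd163l1 passed the size rule in both regions, while Il17a, Trdv4 and Tmem176b passed it in corpus.

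Between regions, corpus members had 39 genes higher (1.73% of 2255 tested) and 32 lower (1.42%) than cauda members. Il17a stood at 449 CPM in corpus members and 50.2 in cauda members (8.94-fold, 5.02 to 17.3), on the cells listed above. On the log2 scale that is 3.16, and 2.18 without members holding an Epcam UMI. After thinning it was found in 10.9% (5.34 to 19.1%) of corpus members and 3.66% (0.761 to 10.3%) of cauda members, and unthinned in 11 of 92 and 4 of 87. Gzma, granzyme A, stood at 243 and 54.1 CPM (4.49-fold, 2.48 to 8.70), from 12 corpus cells with 1 to 13 UMIs and 5 cauda cells with 1 to 9. With at least 3 genes of the rule required, its log2 ratio was 0.09 and no longer passed, against 2.17, and without cells over 20% mitochondrial UMIs it was 3.98. Trdv4 was 3.56-fold higher (1.97 to 6.82) and Trdc 1.78-fold (1.23 to 2.61), both under the rule's size. The log2 ratio of Trdc was 0.83, and 2.11 with at least 3 genes of the rule required. Klrg1, an inhibitory receptor of differentiated lymphocytes, was 5.89-fold lower in corpus (2.46 to 17.1), with 6 UMIs in 6 corpus cells and 37 in 11 cauda cells, of which 1 cell held 14. Ctla2a, a cysteine protease inhibitor of activated T cells, stood at 93.1 CPM in corpus and 398 in cauda (4.28-fold lower in corpus, 2.7 to 7.04). Ifng was 2.15-fold lower in corpus (1.16 to 4.15) and the adhesion gene Cd2, a gene of the rule, 3.82-fold lower (1.94 to 8.20).

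Most genes of the lymphocyte lists, counted here with the genes of the rule, did not pass between regions. Of the 11 antigen receptor genes, 24 signalling genes, 33 transcription factors, 22 cytokine receptors and 30 trafficking genes, none was called in either direction, and 1, 11, 17, 16 and 18 of them had fewer UMIs than the minimum. The median log2 ratio of these lists was 0.43, 0.34, -0.34, -0.02 and -0.29, beside -0.05 over the 3484 genes with 20 UMIs in both groups together. Of 18 granule genes Gzma was higher and Gzmc lower, of 26 NK receptor genes Klrg1 was lower, and of 23 cytokine genes Il17a was higher. Of 14 cell cycle genes, Ube2c, a ubiquitin-conjugating enzyme of mitosis, was higher, with 20 UMIs in 7 corpus members and 2 in 2 cauda members (10.5-fold, 2.54 to 92.4). Trac was 1.10-fold higher in corpus (0.768 to 1.56), Trbc2 1.05-fold (0.855 to 1.30) and Klrd1 1.12-fold (0.765 to 1.65), and Ccl5 was 1.40-fold higher (1.27 to 1.53). Genes of other cells were among those called: Lcn5, Spint5 and Defb30, secreted products of the epithelium, had 129, 211 and 109 UMIs in corpus members and 0 in cauda members, and Col1a1 and Col3a1, collagens of fibroblasts, had 242 and 156 UMIs in corpus members and 1208 and 950 in cauda members. The sperm genes Smcp and Prm2 were higher in corpus as well, with 39 of 84 and 50 of 58 corpus UMIs in a single cell each. The principal cell and fibroblast sums of members, given above, moved with the region in the same direction, and their part in these calls was not tested.

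**Figure D5:**
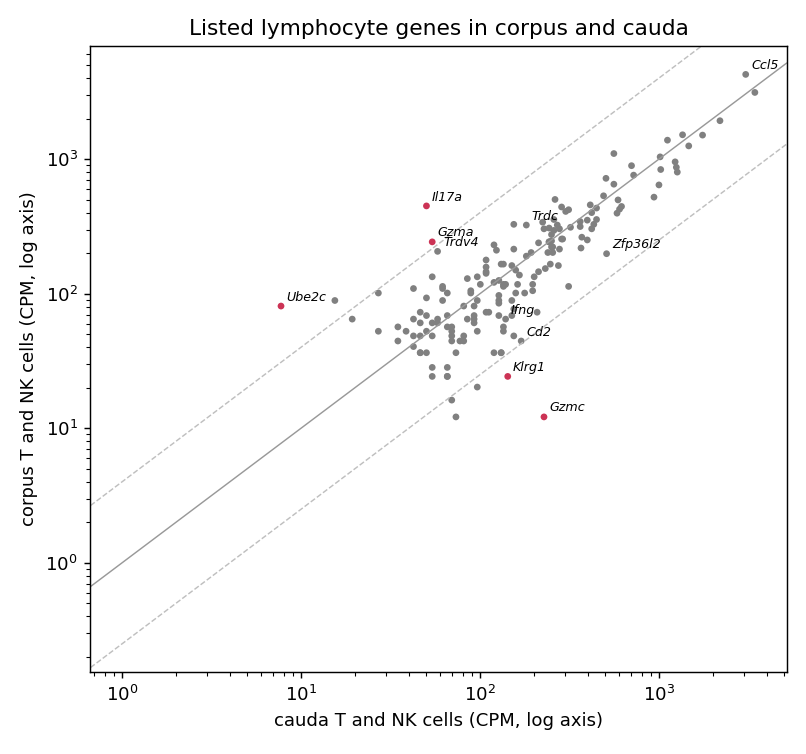
Level of genes of the lymphocyte lists with at least 20 UMIs in all, in corpus members (vertical, CPM, log axis) against cauda members (horizontal, log axis); each point is 1 gene. Red points passed the size rule, dashed lines mark 4-fold, and Gzmc, with 0 corpus UMIs, is drawn at 3 UMIs; Il17a, Gzma and Ube2c lie above the upper line and Klrg1 and Gzmc below the lower one.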

How the data were processed

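The authors deposited a matrix of raw counts (UMIs per gene and cell, 24335 gene symbols by 14845 cells), and its column names give the region. The submitters' processing notes name STAR 2.7.3a, UMI-tools and GRCm38.p6, with the way cells were called not given in the sources used here. Cells with 200 or more genes were kept, with no mitochondrial ceiling and no doublet caller. UMIs were summed per group and given as CPM with exact Poisson intervals, and ratios with exact conditional binomial intervals at 95%. For a ratio, a count of 0 was set to 3 UMIs over the group. Genes of the rule, and those that divide a comparison, stayed out of its counts, except that genes of the rule were counted between corpus and cauda members. Shares have Clopper-Pearson intervals, and a share of 0 is given the limit of 3 cells over the number of cells. The text names the genes of the rule and the markers, up to 10 genes in each direction of a comparison with the largest ratio among those past the size rule (members against other cells: past it in corpus and cauda, by the smaller ratio), not clone-named, and no lower than in the other cells of that library, up to 6 genes of each of 19 lists by UMIs, and the 5 with the widest difference in detection. Others were chosen after their values were seen. The members and lists were chosen with earlier results of these data known. Positions are from GENCODE M21 on GRCm38. Python 3.11.15, numpy 2.4.6, scipy 1.17.1, pandas 2.3.3, matplotlib 3.10.9 and R 4.3.3 with edgeR 4.0.16 (TMM factors only) were used. Some genes are not reported here. The size rule was tested on simulated counts, drawn for each gene as a Poisson sum with no variation between cells. That test does not cover calls that rest on a few cells. Alternatives were other gates, depths, scalings and thresholds.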

Additional observations from a re-analysis of the deposited data

How the results depend on the processing

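Of 192 values recomputed for the main results, 132 stayed within 1.5 times the count of genes or within the counting interval of the share, and 60 moved. These are counts and shares, for which no reversal was defined. Of 520 recomputed ratios of named genes, 458 stayed, 62 moved and 0 reversed. A change of sign was counted as a reversal only for genes that passed the size rule in the main setting. No paired analysis was possible because each region had 1 library.

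The share of members was 0.122% in caput, 1.5% in corpus and 1.43% in cauda without members holding an Epcam UMI (added after seeing the data), and 0.185%, 1.15% and 1.44% after thinning to 1000 UMIs. Requiring 3 of the genes gave 1.30% in corpus and 1.17% in cauda, leaving out cells over 20% mitochondrial UMIs gave 2.43% and 2.28%, and in cauda a minimum of 500 genes gave 2.37% and a complement ceiling of 5 gave 1.34%.

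With a 2-fold rule, the genes called numbered 1117 in corpus and 988 in cauda for members over other cells, 953 and 1038 over macrophage-gate cells, 321 for corpus over cauda, 97 for Klrd1 over Cd4, 59 for Cd8a over Cd4, 70 for Klrd1 over Cd8a, 162 and 140 for Klrd1 over none, and 96 and 69 for gamma or delta over Trac. A minimum of 50 UMIs gave 123 and 92 over other cells, 35 for corpus over cauda, 9 for Cd8a over Cd4, 22 and 15 for Klrd1 over none, and 8 and 3 for gamma or delta over Trac. No minimum gave 683 and 523 over other cells, 500 and 642 over macrophage-gate cells, 97, 43 and 98 for the pooled groups in the same order, 78 for Klrd1 over none in corpus, and 27 for gamma or delta over Trac in cauda. Weighting each cell equally, where no interval applies, gave 4741 and 3939, 736 and 1484, 293 for Klrd1 over Cd4, 374 for Klrd1 over Cd8a, and 37 for gamma or delta over Trac in cauda. For these 4 settings the construction of the rule shows why the count moves.

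Without Epcam members the counts were 7, 2 and 6 in the pooled groups, 21 for Klrd1 over none in cauda, and 11 and 6 for gamma or delta over Trac. Requiring 3 genes gave 29 for Klrd1 over none in corpus and 6 for gamma or delta over Trac in cauda. For Klrd1 over Cd4, a sum of 10 per 10000 gave 12, TMM 55 and thinned sums 14, and TMM gave 41 for Klrd1 over Cd8a. The cause was not tested. TMM shifts were 0.73 and 0.85 on the log2 scale in those last 2 comparisons. Depth limits what can be read: caput had 18 members, and transcription factors with 11 or fewer UMIs could not be compared.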

Other observations

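Members were set beside other cells of their library for the other lists as well, where 1.15% of all genes tested were higher in corpus and 0.863% in cauda. Of 14 cell cycle genes, 0 were called in corpus and 0 in cauda (median log2 ratio 0.32 and 0.90). Mki67, a proliferation gene, stood at 48.7, 129 and 85.0 CPM in caput, corpus and cauda members, against 41.2, 46.2 and 28.8 in the other cells, and was found in 4, 13 and 6 members. Of 18 interferon response genes, Gbp7 was higher in corpus and none in cauda (median log2 ratio 1.14 and -0.26). Of 22 activation genes, 4 were higher in corpus and 6 in cauda, with Dusp2, Zfp36l2, Tnfaip3 and Cd69 in both (median log2 ratio 0.92 and 0.10). Dusp2, a phosphatase of activated lymphocytes, was 17.2-fold higher in corpus (13.2 to 22.1) and 13.4-fold in cauda (10.2 to 17.5).

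Of 11 genes on the regulatory T cell list, 0 were higher in corpus members and 4 in cauda members: Il2ra, Ikzf2, Tnfrsf4 and Tnfrsf18 (median log2 ratio 1.98 and 2.7). Foxp3, also listed, was not among the genes of the counts used, so it could not be read. Tnfrsf4, the costimulatory receptor OX40, had 5 UMIs in 3 corpus members and 25 in 14 cauda members (4.77-fold lower in corpus, 1.80 to 16.0, which does not pass). Of 14 genes on the list for group 2 innate lymphoid cells, Rora and Icos were higher in corpus, and Klrg1 and Icos in cauda (median log2 ratio 2.53 and 2.94). Il5 had 6 UMIs in corpus members and 3 in cauda members, Il13 had 0 and 3, and Il1rl1 had 2 and 10. Of 18 checkpoint and costimulation genes, 2 were higher in corpus and 5 in cauda, with Cd226 and Icos in both (median log2 ratio 4.81 and 4.34). Of 18 metabolic genes, Fabp4 was lower in corpus and none was called in cauda (median log2 ratio -0.15 and 0.25). Of 16 epididymal secreted genes, Lcn2 was lower in corpus and none was called in cauda (median log2 ratio -1.03 and -0.48). Over all genes the median was 0.52 in corpus and 0.36 in cauda.

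Klrb1c and Klrb1a, lectin-like receptors listed as NK genes, were read in epithelium of caput. A Klrb1c UMI was found in 39.3% of caput Epcam cells, 0.285% of those in corpus and 0.465% of those in cauda, and a Klrb1a UMI in 45.2%, 0.0713% and 0.465%. The 8 NK marker genes summed to 122 CPM in caput members and 117 in the other caput cells, with Ncr1, Eomes, Prf1, Klra8 and Klra4 at 0 in caput members. In corpus they summed to 781 in members and 11.4 in the other cells, and in cauda to 441 and 13.7.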
